A study of Mus musculus with 6 samples.

Results

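IGF-binding proteins and the receptors of the IGF and insulin family were measured in single cells of mouse esophageal organoids. The 9 genes comprised 6 binding proteins (Igfbp2, Igfbp3, Igfbp4, Igfbp5, Igfbp6 and Igfbp7) and 3 receptors (Igf1r, Igf2r and Insr), of 32285 genes in the tables. They were chosen by name. Igfbp2 was of interest because earlier results of these data had placed it first among the genes of a basal cluster, so its levels over clusters and layers are a description without a test. All 9 were read in the 25154 of 26808 barcodes that held at least 500 detected genes.

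Esophageal epithelial cells of C57BL6 mice were sorted as positive for integrin-b1, which basal cells carry on their surface, and negative for DAPI, a stain of dead cells. They were further split by Cyto-ID, a dye that stains autophagic vesicles, into Cyto-ID Low and Cyto-ID High founders. Both kinds of founder were grown into organoids in Matrigel with EGF, Noggin and R-Spondin, and droplet 3′ libraries were made after 15 days of culture. Each group had 3 libraries, labelled F2, M3 and F6. The Cyto-ID signal describes the founder at the sort and not the organoid cells that were sequenced. The labels do not say whether a library came from 1 animal or several, so p-values measure the spread between these libraries.

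IGF1 and IGF2 signal through the receptor IGF1R, and insulin through the closely related INSR. The other receptor, IGF2R, takes up IGF2 and carries it to lysosomes, where it is degraded, and it also sorts lysosomal enzymes. Secreted binding proteins hold IGFs outside the cell, where they can prolong their life, keep them from receptors or release them after cleavage by proteases. IGFBP7 binds IGFs weakly and is often grouped apart from IGFBP1 to IGFBP6. In stratified epithelia, basal cells divide next to the matrix, and their daughters move through suprabasal to superficial layers.

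Median depth was between 1940.5 and 10038 UMIs per kept cell, and both F2 libraries were the deepest. Cell classes were drawn from the expression of other genes, with the members left out of the clustering, and named from layer markers, from basal-like and proliferating-like to suprabasal-like and then superficial-like. A Krt12-led cluster of 3123 cells stayed unnamed. Basal markers were abundant in every library. Ptprc, Col3a1, Cdh5 and Emcn, which mark immune cells, fibroblasts and endothelium, were at 0 UMIs in all 6 libraries. Other markers of these types were detected, such as Itgam, Pdgfra and Pecam1, at up to 5.57, 0.877 and 0.854 CPM in a library. Summed levels of the other cell types' marker lists ranged from 0.293 to 5.19 CPM for fibroblasts and from 0.0945 to 0.854 CPM for endothelium. They ranged from 0.343 to 4.12 CPM for muscle and from 0.975 to 2.07 CPM for melanocytes or Schwann cells. The immune list summed to between 9.46 and 26.7 CPM, mostly Cd68. At most 10 barcodes were shared by any 2 libraries.

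Levels are given as CPM, the UMIs of a gene scaled to the total of each cell and averaged over the cells of a library. Some of the binding protein genes have another of the family as a neighbour (GRCm38, positions from GENCODE M21). Igfbp2 (chr1:72824503-72852474, forward strand) and Igfbp5 (chr1:72857932-72874884, reverse strand) are 5457 bases apart. Igfbp3 (chr11:7206086-7213923, reverse strand) lies 3539 bases from Igfbp1, a liver binding protein. The 250 bases before the RefSeq start (GRCm38.p6; for Igfbp2 the first of 2 listed starts) are shown for Igfbp2, which differed between the groups, for Igfbp3, which was lower in G2M than in G1 cells when 2 classes were pooled, and for Igfbp7, which differed between layers. They are written 5′ to 3′ on the gene's strand, and capitals mark GC boxes (GGGCGG or its complement CCGCCC), to which Sp-family factors are known to bind.
Igfbp2, chr1:72824230-72824479, forward strand: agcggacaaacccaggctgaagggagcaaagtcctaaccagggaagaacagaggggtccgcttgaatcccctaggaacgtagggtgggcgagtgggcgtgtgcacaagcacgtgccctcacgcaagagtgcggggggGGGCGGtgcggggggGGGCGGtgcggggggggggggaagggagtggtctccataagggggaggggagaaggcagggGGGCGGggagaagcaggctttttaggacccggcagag
Igfbp3, chr11:7213924-7214173, reverse strand: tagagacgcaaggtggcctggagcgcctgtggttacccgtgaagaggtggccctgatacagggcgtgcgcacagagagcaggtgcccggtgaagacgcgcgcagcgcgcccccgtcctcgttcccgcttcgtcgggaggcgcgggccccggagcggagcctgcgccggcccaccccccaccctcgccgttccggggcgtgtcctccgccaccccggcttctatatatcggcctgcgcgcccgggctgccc
Igfbp7, chr5:77408046-77408295, reverse strand: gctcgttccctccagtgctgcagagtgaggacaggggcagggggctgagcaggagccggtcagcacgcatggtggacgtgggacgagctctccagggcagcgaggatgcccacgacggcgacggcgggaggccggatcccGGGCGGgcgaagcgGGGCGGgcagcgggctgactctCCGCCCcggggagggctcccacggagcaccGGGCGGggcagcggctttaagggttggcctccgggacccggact

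The 3 sequences were rich in G and C, at 67.2%, 73.2% and 74% against a median of 52.4% over 32851 promoters of the same length. GC boxes were found 3 times before Igfbp2, 4 times before Igfbp7 and not before Igfbp3, and 32.74% of all promoters held at least 1. The core of the metal response element (TGCACNC or TGCGCNC) was found once before Igfbp2 and 4 times before Igfbp3, and in 21.41% of all promoters. The 250 bases before the other listed start of Igfbp2 (chr1:72825137-72825386) held neither motif, with 56.4% G and C. The TATA box (TATAAA) and the core of the antioxidant response element (TGACNNNGC) were also searched and not found in any of these sequences. They were found in 12.37% and 10.16% of all promoters. Both strands were searched, and matches of different motifs may overlap. A match is a description of the letters and not a measured site.

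Igfbp2, which encodes a binding protein abundant in fetal tissues, was higher in organoids from Cyto-ID High founders. In Low libraries it stood at 10.7 CPM in F2, 9.74 CPM in M3 and 5.10 CPM in F6. In High libraries it stood at 89.4 CPM in F2, 54.4 CPM in M3 and 64.1 CPM in F6. The groups did not overlap, and High was above Low for each of the 3 replicate labels, by 8.33-fold in F2, 5.58-fold in M3 and 12.6-fold in F6. The means were 8.52 ± 3.01 CPM (SD, n = 3) and 69.3 ± 18.0 CPM (SD, n = 3). The share of all genes whose groups did not overlap was not counted, here or in the classes and clusters below.

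**Figure D1:**
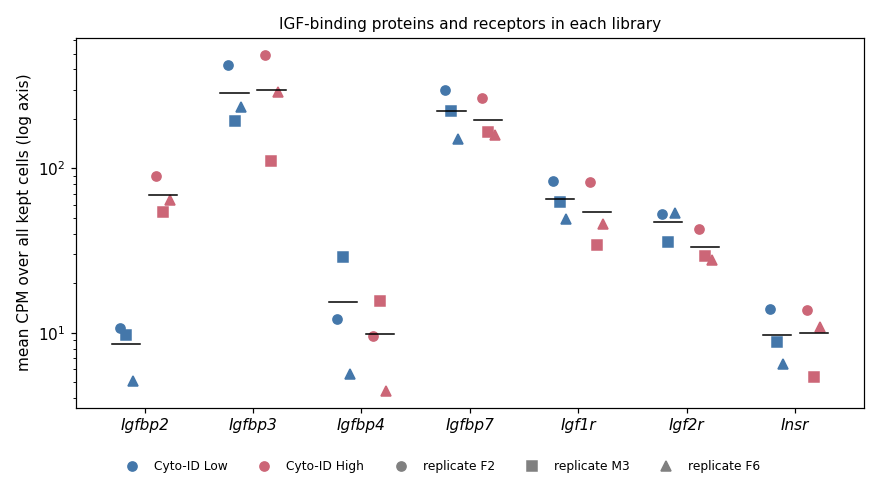
Mean CPM over all kept cells (log axis) of the 7 members above the filter on low values, with 1 point per library, colour for the founder group, shape for the replicate label and a bar at each group's mean. The Igfbp2 points of the 3 High libraries lie between 54.4 and 89.4 CPM, all above the Low libraries, while the groups of the other 6 genes overlap.

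The difference was tested with limma across all genes that reached 1 CPM in 3 or more libraries, as High minus Low on the log2(CPM + 1) scale. Igfbp2 rose by a log2 difference of 3.02 ± 0.25 (SE; 95% interval 2.45 to 3.59), with a Benjamini-Hochberg adjusted p of 0.0035 in limma, and ranked 3 of 11645 genes by p. It was the 1 member called of the 7 tested, where 0.163% of all genes were called. With the replicate label as a block it was again the 1 member called (adjusted p 0.0051 in limma), among 0.55% of all genes. The p is not independent evidence, since Igfbp2 was picked with earlier results of these data known. Igfbp5 and Igfbp6 did not pass the filter on low values. Without that filter, with the scaling and the fit redone over more genes, the adjusted p of Igfbp2 was 0.10 in limma. The cause of this change was not tested.

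Within the basal-like class the groups also stood apart. Low libraries held 16.4 CPM in F2, 18.3 CPM in M3 and 8.70 CPM in F6, and High libraries held 99.1 CPM, 99.7 CPM and 91.0 CPM in the same order. The 3 High libraries were nearly level, with an SD of 4.88 CPM around a mean of 96.6 CPM. The log2 difference was 2.89 ± 0.25 (SE), with an adjusted p of 0.0030 in limma. Igfbp2 was again the 1 member called of 7, against 0.249% of all genes (0.877% with the replicate block, adjusted p 0.0011 in limma), and its adjusted p was 0.063 without the filter on low values. The class was made up differently in the groups: the cluster that Igfbp2 leads held 512 Low and 1709 High cells, and the largest basal cluster 2838 Low and 2558 High cells. The part of this makeup in the difference was not tested.

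After each cell was thinned to 1000 UMIs, between 0.857% and 2.16% of basal-like cells of Low libraries and between 6.91% and 7.91% of those of High libraries held an Igfbp2 UMI. Unthinned, the mean shares were 5.17% and 15.4%. Cells with fewer than 1000 UMIs were left out of the thinned shares, and numbered 17, 42 and 56 in the Low and 10, 115 and 107 in the High libraries F2, M3 and F6. No class here is known to lack Igfbp2. The mean thinned share over the 6 libraries was 0.576% in the unnamed class and 0.646% in superficial-like cells, and their order varied between libraries.

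In suprabasal-like cells Igfbp2 was lower in level and the groups again did not overlap. Low libraries held 6.37 CPM in F2, 2.13 CPM in M3 and 1.02 CPM in F6, and High libraries held 75.4 CPM, 30.3 CPM and 28.9 CPM. The log2 difference was 3.64 ± 0.43 (SE), with an adjusted p of 0.0138 in limma, where Igfbp2 was the 1 member called of 7 and 0.338% of all genes were called. With the replicate block 2.5% of all genes were called, again with Igfbp2 as the 1 member (adjusted p 0.0018 in limma). The call was lost without High F2 (adjusted p 0.074), Low F6 (0.081) or High F6 (0.099), with log2 differences of 3.31, 3.26 and 3.83. It was also lost with a pseudocount of 0.1 CPM (0.053) and without the filter (0.175). Different clusters made up this class in the groups: 1934 Low cells were in the Il33-led cluster and 385 in the Calm4-led cluster, against 1428 and 1623 High cells.

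**Figure D2:**
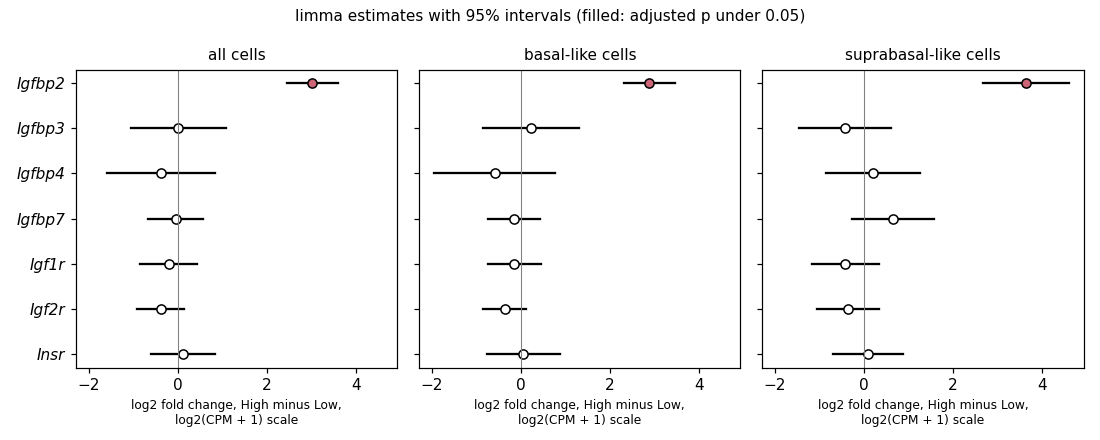
Log2 fold change, High minus Low, on the log2(CPM + 1) scale for 7 members in all cells, basal-like cells and suprabasal-like cells, with 95% intervals from limma and filled points for an adjusted p under 0.05. Igfbp2 lies at 3.02, 2.89 and 3.64, and the intervals of the other 6 genes include 0.

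The founder groups did not stand apart in every cluster of the basal-like class. In the cluster that Igfbp2 leads together with the metallothionein Mt3 and the retinol-oxidising enzyme Adh7, the mean was 52.4 ± 30.3 CPM in Low and 271 ± 28.0 CPM in High libraries. In the largest basal cluster, led by Tmem176b, the means were 10.8 ± 2.66 and 15.2 ± 6.23 CPM. In the basal cluster led by U90926 they were 9.88 ± 6.75 and 8.91 ± 8.12 CPM. The groups overlapped in these last 2 clusters and stood apart in the first. The basal-like cluster led by Tslp, with 289 cells, held 0 Igfbp2 UMIs in the Low libraries and 1, 1 and 0 in High F2, M3 and F6. Its name rested on a low basal score, a mean log2 marker fold of 0.126. With a clustering at resolution 1.0 the Tslp-led cluster stayed unnamed. SDs are over 3 libraries per group, and no test was made between clusters.

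**Figure D3:**
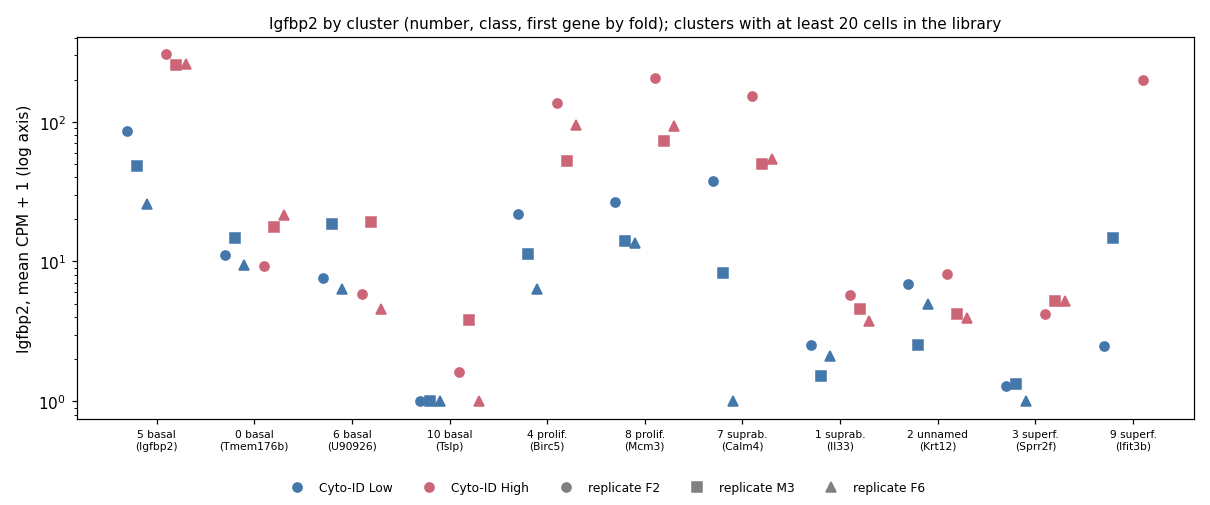
Igfbp2, mean CPM + 1 (log axis), in each cluster with at least 20 cells in the library, with 1 point per library, colour for the founder group and shape for the replicate label. High libraries lie above Low libraries in clusters 5, 4, 8, 7, 1 and 3, and the groups overlap in clusters 0, 6, 10 and 2, with cluster 10 the lowest. Cluster 9 has points for 3 libraries.

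Dividing and differentiating clusters carried the difference as well. In the Birc5-led proliferating cluster the means were 12.1 ± 7.85 CPM in Low and 93.8 ± 42.3 CPM in High, and in the Mcm3-led one 17.1 ± 7.51 and 123 ± 71.8 CPM. The Calm4-led suprabasal cluster held 14.7 ± 19.5 and 85.0 ± 58.4 CPM, while the Il33-led one held 1.05 ± 0.505 and 3.70 ± 0.991 CPM. In superficial-like cells High F2 stood at 43.0 CPM against 4.21 and 6.24 CPM in High M3 and F6. A shallow interferon-gene cluster of 338 cells entered that value, and in the Sprr2f-led superficial cluster the means were 0.208 ± 0.181 CPM in Low and 3.88 ± 0.580 CPM in High. In the unnamed class the groups overlapped, at 3.80 ± 2.20 and 4.41 ± 2.34 CPM.

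Over the layers, Igfbp2 was highest in proliferating-like (59.1 ± 59.2 CPM; SD, n = 6) and basal-like cells (55.5 ± 45.2 CPM), whose order varied between libraries. Suprabasal-like cells followed at 24.0 ± 28.4 CPM and superficial-like cells at 9.42 ± 16.6 CPM. Basal-like cells were above suprabasal-like cells in 6 of 6 libraries. Both founder groups are pooled in these SDs. The class means mix unlike clusters. Over 6 libraries the Igfbp2-led basal cluster averaged 162 CPM, and those led by Tmem176b, U90926 and Tslp averaged 13.0, 9.39 and 0.575 CPM. The Calm4-led suprabasal cluster averaged 49.9 CPM, more than the basal clusters other than the Igfbp2-led one, and the Il33-led one 2.37 CPM. The Sprr2f-led superficial cluster averaged 2.05 CPM. The class order is therefore not an order of all clusters. The Igfbp2-led cluster held on average 23.2% of the Igfbp2 UMIs of a Low library in 4.10% of its cells, and 43.8% of those of a High library in 12.8% of its cells. In Low libraries the Tmem176b-led cluster held more, at 30.7%. These shares describe the makeup of the libraries and were not tested.

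The genes whose levels followed Igfbp2 most closely were ranked by Pearson's r of log2(CPM + 1) over 24 means (6 libraries and 4 classes), among 6962 genes. The first 8 were Mt2 (0.87), Tomm5 (0.86), Ces1h (0.86), Ndufb6 (0.85), Snhg16 (0.85), Ndufaf4 (0.84), Jarid2 (0.84) and Mt3 (0.84). Mt2 and Mt3 are metallothioneins, which bind zinc and copper, and Ndufb6 and Ndufaf4 belong to mitochondrial complex I and its assembly. Means of 1 library share its depth and cells, so the 24 points are not independent and no p is given.

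Igfbp3, the main carrier of IGFs in blood and a p53 target, varied with the replicate label more than with the founder group. It stood at 428 and 492.6 CPM in Low and High F2, at 236 and 292 CPM in F6, and at 195 and 111 CPM in M3. F2 was highest and M3 lowest in both groups. The High minus Low log2 difference was 0.02 ± 0.48 (SE; 95% interval -1.06 to 1.09), with an adjusted p of 0.995 in limma. The F2 libraries were also the deepest, at medians of 7789 and 10038 UMIs per cell, and the part of depth in these levels was not tested.

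Igfbp3 was expressed in every layer. It averaged 320 ± 170 CPM (SD, n = 6) in basal-like, 323 ± 163 CPM in suprabasal-like and 260 ± 137 CPM in superficial-like cells, which overlap widely. Proliferating-like cells held 198 ± 94.9 CPM, below basal-like cells in 6 of 6 libraries, and superficial-like cells were below basal-like cells in 5 of 6. Clusters within a class varied: the Il33-led suprabasal cluster held 453 ± 240 CPM and the Calm4-led one 102 ± 49.7 CPM (SD, n = 6). Over the same 24 means, Amotl2, Ncstn and Mef2a followed Igfbp3 most closely (r of 0.91 each).

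**Figure D4:**
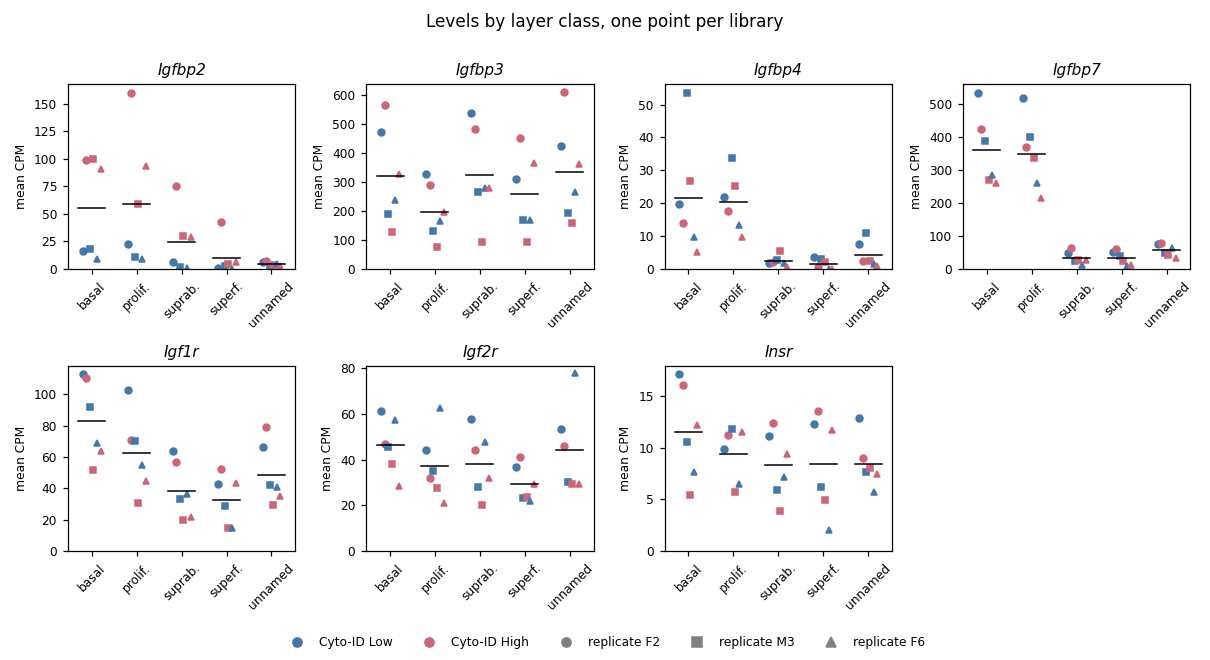
Mean CPM of 7 members by class (basal, proliferating, suprabasal, superficial and unnamed), with 1 point per library, colour for the founder group, shape for the replicate label and a bar at the mean over 6 libraries. Igfbp7 averages 360 CPM in basal-like and 32.95 CPM in suprabasal-like cells, and Igfbp3 averages 320 and 323 CPM.

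Cell cycle phases were compared in basal-like and proliferating-like cells thinned to 1000 UMIs, with phases scored from other genes. The phases held different classes: 7054 of 7294 G1 cells were basal-like and 1991 of 2502 G2M cells proliferating-like, so phase and class cannot be told apart in the pooled values. Pooled Igfbp3 was lower in G2M than in G1 in every library. In Low libraries it went from 442 to 362 CPM in F2, from 216 to 111 CPM in M3 and from 193 to 136 CPM in F6. In High libraries it went from 565 to 296 CPM, from 125 to 81.7 CPM and from 322 to 180 CPM in the same order. The means were 310 ± 167 CPM in G1 and 194 ± 111 CPM in G2M (SD, n = 6).

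With the library as a block, the Igfbp3 log2 difference G2M minus G1 was -0.80 ± 0.09 (SE; 95% interval -0.998 to -0.606), with an adjusted p of 1.3e-05 in limma. Igfbp3 was the 1 member called of 7, where 8.34% of all genes were called. The median over all 12398 genes tested was -0.19, so Igfbp3 lay further below 0 than the typical gene. Of the called genes 469 were higher and 565 lower in G2M, and 590 were higher and 276 lower without TMM factors, which moved the median to -0.09. Igfbp3 passed under the 10 alternatives that pooled classes, between -0.88 and -0.69. In basal-like cells alone the means were 313 ± 171 CPM in G1 and 242 ± 106 CPM in G2M, and G2M was above G1 in 2 of 6 libraries. In proliferating-like cells alone they were 245 ± 97.8 and 182 ± 119 CPM, and G2M was above G1 in 1 of 6, Low F2, at 380 against 323 CPM.

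Fits within 1 class, added after seeing the data, gave Igfbp3 a log2 difference of -0.65 ± 0.17 (SE; adjusted p 0.026 in limma) in basal-like and -0.23 ± 0.30 (adjusted p 0.57) in proliferating-like cells. They rested on few cells, with 30 to 112 basal-like G2M cells and 31 to 59 proliferating-like G1 cells per library. The median over all genes lay at -0.90 and 1.25 in these fits, lower in both in the phase with fewer cells, and 7.1% and 7.29% of all genes were called, so their sizes and calls are not read as phase differences.

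**Figure D5:**
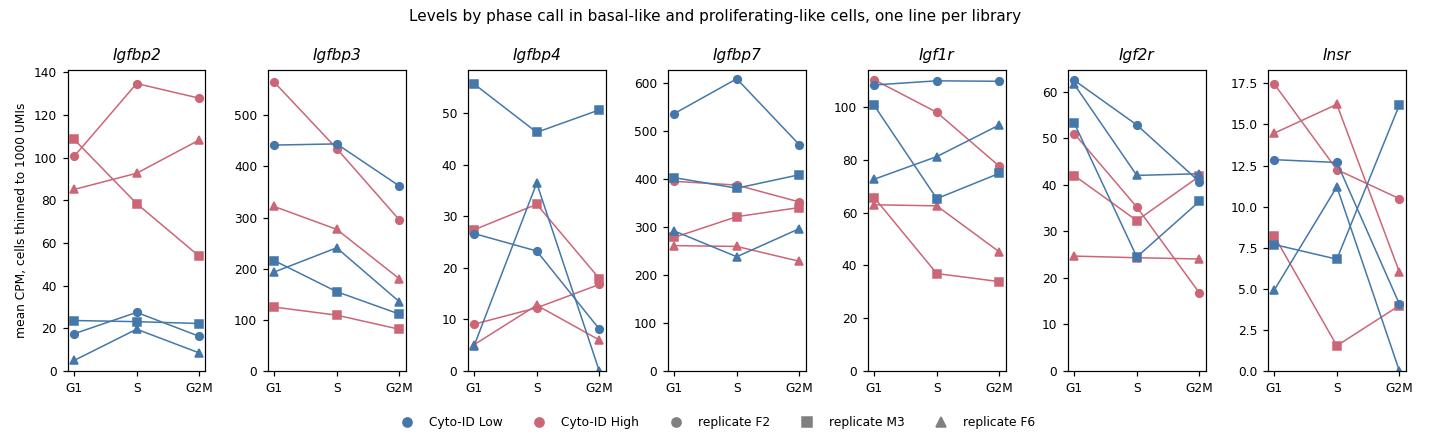
Mean CPM of 7 members in basal-like and proliferating-like cells called G1, S or G2M, after thinning to 1000 UMIs, with 1 line per library, colour for the founder group and shape for the replicate label. Igfbp3 lies lower in G2M than in G1 in 6 of 6 libraries, with means of 194 and 310 CPM.

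Igfbp2 was not called between pooled phases. It averaged 56.7 ± 46.3 CPM in G1, 62.7 ± 46.9 CPM in S and 56.2 ± 50.8 CPM in G2M (SD, n = 6). The log2 difference G2M minus G1 was -0.08 ± 0.21 (SE; 95% interval -0.51 to 0.36), with an adjusted p of 0.86 in limma. The sign turned to 0.39 with all kept cells, 0.13 without High M3 and 0.03 without TMM factors.

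Igfbp7, a secreted protein of basement membranes and vessels, marked the lower layers. It averaged 360 ± 109 CPM (SD, n = 6) in basal-like and 350 ± 107 CPM in proliferating-like cells, against 32.95 ± 18.5 CPM in suprabasal-like and 32.2 ± 21.4 CPM in superficial-like cells. In the Sprr2f-led superficial cluster, without the shallow interferon-gene cluster, it averaged 19.4 ± 10.3 CPM. Basal-like cells were above suprabasal-like cells in 6 of 6 libraries, and the ratio of the means was 10.9. The first 2 classes could not be ordered, since basal-like was higher in 4 of 6 libraries.

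Between founder groups Igfbp7 did not pass the test. It stood at 298, 223 and 151 CPM in Low and at 268, 166 and 161 CPM in High libraries F2, M3 and F6, and the groups overlapped. The log2 difference was -0.05 ± 0.27 (SE) in all cells, -0.16 ± 0.26 in basal-like and 0.66 ± 0.42 in suprabasal-like cells, with adjusted p-values of 0.98, 0.93 and 0.56 in limma. In suprabasal-like cells High was above Low for each of the 3 labels, at 62.4 against 47.8 CPM in F2, 26.3 against 23.4 CPM in M3 and 26.0 against 11.7 CPM in F6. With classes from a clustering at resolution 0.3 the suprabasal-like log2 difference was -0.014. From G1 to G2M the log2 difference of Igfbp7 was -0.15 ± 0.08 (SE; adjusted p 0.29 in limma) in basal-like and proliferating-like cells together. In basal-like cells alone the means were 362 ± 105 CPM in G1 and 427 ± 84.6 CPM in G2M, higher in 5 of 6 libraries. The fit within that class, on few cells, gave a log2 difference of -0.09 ± 0.14 (SE), with an adjusted p of 0.64 in limma. The median of all genes in that fit was -0.90. Over all kept cells, which mixes the layers, the log2 difference of Igfbp7 was 0.53 with an adjusted p of 0.00033 in limma.

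Igfbp4, which keeps IGFs from their receptor until proteases such as PAPP-A cleave it, followed the layers like Igfbp7 at its own lower level. It averaged 21.4 ± 17.5 CPM in basal-like and 20.3 ± 8.63 CPM in proliferating-like cells, and 2.38 ± 1.61 CPM in suprabasal-like cells. Basal-like cells were above suprabasal-like cells in 6 of 6 libraries. The likeness did not hold in every cluster. In the Tslp-led basal-like cluster Igfbp7 averaged 448 ± 119 CPM and Igfbp4 4.86 ± 8.14 CPM (SD, n = 6). Over all cells Igfbp4 was lower in High than in Low for each label. It stood at 9.53 against 12.0 CPM in F2, 15.6 against 28.7 CPM in M3 and 4.44 against 5.65 CPM in F6. M3 was highest in both groups, the groups overlapped, and the log2 difference of -0.37 ± 0.54 (SE) had an adjusted p of 0.89 in limma. From pooled G1 to G2M cells the mean went from 21.5 ± 19.6 to 16.6 ± 18.0 CPM, higher in 2 of 6 libraries, with a log2 difference of -0.72 ± 0.42 (SE; adjusted p 0.33 in limma).

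Igfbp5 and Igfbp6 were nearly absent. Igfbp5, a binding protein of muscle and bone as well as skin, had 37 UMIs in all kept cells and at most 0.492 CPM in a library. It had none in suprabasal-like or superficial-like cells, which allows up to 0.0780 and 0.130 CPM over the UMIs of those classes (3 counts, counting error only). Igfbp6, which prefers IGF2, had 4 UMIs.

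Igf1r, the receptor for IGF1 and IGF2, was highest in basal-like cells. It averaged 83.2 ± 25.6 CPM (SD, n = 6) there, 62.4 ± 25.1 CPM in proliferating-like, 48.8 ± 19.6 CPM in unnamed, 38.5 ± 18.0 CPM in suprabasal-like and 32.7 ± 16.0 CPM in superficial-like cells. Basal-like cells were above each other class in 6 of 6 libraries. Over all cells it stood at 83.3, 62.5 and 49.0 CPM in Low and at 83.2, 34.0 and 45.6 CPM in High libraries F2, M3 and F6. The groups overlapped, and the log2 difference was -0.21 ± 0.29 (SE; adjusted p 0.88 in limma). From pooled G1 to G2M cells the mean went from 86.8 ± 22.0 to 72.4 ± 28.6 CPM (SD, n = 6), lower in 4 of 6 libraries. Within each class the mean was higher in G2M, at 88.1 ± 22.9 against 103 ± 53.9 CPM in basal-like (3 of 6 libraries) and 48.8 ± 21.3 against 63.7 ± 28.3 CPM in proliferating-like cells (4 of 6). The highest basal-like G2M value, 167 CPM in Low F6, rested on 5 UMIs in 30 cells. The proliferating-like G1 mean rested on 11 UMIs. The pooled log2 difference of -0.44 ± 0.15 (SE) had an adjusted p of 0.075 in limma. It passed in 2 alternatives, without thinning and without Low F6 (adjusted p 0.0093 in limma). Without Low F6 603 of all genes were called higher and 669 lower, against 469 and 565 with all libraries.

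Igf2r, the clearance receptor for IGF2, was spread over all layers, from 46.2 ± 12.0 CPM in basal-like to 29.3 ± 7.95 CPM in superficial-like cells. Over all cells High was below Low for each label, at 42.9 against 52.6 CPM in F2, 29.4 against 35.8 CPM in M3 and 27.8 against 53.7 CPM in F6. After TMM scaling High was still below Low for each label, but M3 was nearly level, at 32.9 against 33.5 CPM. The log2 difference was -0.38 ± 0.24 (SE; 95% interval -0.92 to 0.15), with an adjusted p of 0.70 in limma. In proliferating-like cells the groups did not overlap, at 47.2 ± 14.0 and 26.8 ± 5.57 CPM. This class had no test and the share of all genes without overlap was not counted, so the values are a description. From pooled G1 to G2M cells the mean went from 49.2 ± 14.2 to 33.7 ± 10.7 CPM (SD, n = 6), lower in 6 of 6 libraries. High M3 moved only from 42.0 to 41.8 CPM and High F6 from 24.7 to 24.1 CPM. Within each class G2M was above G1 in 2 of 6 libraries, with means of 49.4 ± 13.5 and 38.4 ± 9.32 CPM in basal-like and 44.1 ± 47.7 and 32.7 ± 13.2 CPM in proliferating-like cells. The basal-like G2M and proliferating-like G1 means rested on 20 and 10 UMIs. The pooled Igf2r log2 difference of -0.66 ± 0.20 (SE) had an adjusted p of 0.053 in limma, which missed the threshold. It passed in 1 alternative, at 0.048 without Low F6, where more of all genes were called.

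Insr, the insulin receptor, was low in every layer. It averaged 11.5 CPM in basal-like, 9.43 CPM in proliferating-like, 8.31 CPM in suprabasal-like and 8.44 CPM in superficial-like cells. Over all cells it stood at 13.9, 8.84 and 6.45 CPM in Low and at 13.7, 5.35 and 10.8 CPM in High libraries F2, M3 and F6, and the groups overlapped. The log2 difference was 0.11 ± 0.32 (SE; adjusted p 0.95 in limma). From pooled G1 to G2M cells the mean went from 10.9 ± 4.75 to 6.79 ± 5.73 CPM, higher in 1 of 6 libraries, on 82 and 20 UMIs. That log2 difference of -1.04 ± 0.47 (SE) had an adjusted p of 0.21 in limma.

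The ligands of these receptors were scarcely detected. Of 7 ligands and carriers (Igf1, Igf2, Ins1, Ins2, Igfals, Igfbp1 and Igfbpl1), 1 passed the filter on low values. Igfals, the partner of IGFBP3 in blood, averaged 1.40 CPM and Igf2 0.283 CPM. Igf1 was at 0 UMIs in 5 of 6 libraries. The medium's supplements, of which B27 and N2 are known to contain insulin, were the same for both groups per the labels' protocols.

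Proteases that cut binding proteins were expressed. Of 8 proteases and inhibitors 5 were tested in all cells, and none was called between founder groups (median log2 difference -0.03, against 0.00 for all genes). Htra1 averaged 157 CPM and Pappa 71.7 CPM. From pooled G1 to G2M cells, whose classes differ as given above, 0 rose and 2 of 5 fell: Pappa, which encodes PAPP-A, by a log2 difference of -0.72 ± 0.14 (SE; adjusted p 0.0029 in limma) and Htra1 by -0.54 ± 0.09 (adjusted p 0.00051). Among all genes 8.34% were called in that comparison. Neither was called within 1 class: Pappa was at -0.47 in basal-like and 0.91 in proliferating-like cells (adjusted p 0.28 and 0.35 in limma) and Htra1 at -0.35 and -0.40 (0.18 and 0.31), in the same fits on few cells. The list's median was -0.54, against -0.19 for all genes.

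Signalling components downstream were measured too, in a comparison where 0.163% of all genes were called, so that 0 calls in lists of this size is near the background. Of 12 receptor adaptors and brakes 11 were tested in all cells, with 0 called and a median of -0.01. Ptprf, a receptor phosphatase, averaged 205 CPM and Grb2, an adaptor to Ras, 70.5 CPM. Of 21 genes of the PI3K, AKT and FOXO core 19 were tested, with 0 called and a median of -0.08. Rheb, the activator of mTORC1, averaged 118 CPM. No gene of these lists was called in basal-like or suprabasal-like cells, where 0.249% and 0.338% of all genes were called. In pooled G2M against G1 cells, where 8.34% were called, no list gene was called apart from Pappa and Htra1. That comparison tested 11 adaptors and brakes and 20 core genes.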

How the data were processed

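Single-cell RNA was measured in 6 libraries. Reads were processed with Cell Ranger 6.0.0 and Seurat 4 on mm10 (GRCm38), per the submitters' processing notes; which step used which is not given in the sources used here. The authors deposited natural log (ln) values of 1 plus UMIs per 10000; this unit was inferred from the numbers, since no label gives it. On the linear scale 100% of values were whole multiples of their cell's smallest step within 1e-06, so UMIs were recovered. The tables hold between 8457489 and 48957523 UMIs per library.

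Cells with at least 500 detected genes were clustered with Seurat 5.3.0 (R 4.3.3; 2000 variable genes without the members and the IGF lists, reciprocal principal component integration, Louvain resolution 0.5). Clusters were named by the class with the highest mean log2 marker fold, if that was above 0 and enough of its markers were detected. A cluster stayed unnamed if another class had more markers among its 10 highest genes by fold. Clusters below 0.33 of the median depth also needed a marker of their class among these. The Krt12-led cluster's highest mean was -0.58, for basal markers. No doublet caller was run and no cell was removed as a doublet. Phases were scored in scanpy 1.11.5 with 43 S and 54 G2M genes.

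Mean CPM per library, divided by TMM factors, was tested as log2(CPM + 1) with limma 3.58.1 (mean-variance trend, no replicate block, Benjamini-Hochberg, threshold 0.05) over genes that reached 1 CPM in 3 or more libraries. The script was tested on simulated data. Levels in CPM are printed before TMM scaling. Deviations from group means correlated within a replicate label at 0.76 in F2, 0.58 in M3 and 0.15 in F6 over 8878 genes. High F6 correlated with Low F2 at 0.17, so the labels paired the F2 and M3 libraries but not clearly F6. The block changed no call of a member. All 9 members are reported; list genes are named if called or among the 2 highest of their list, and 1 such gene is not reported here. Members and lists were chosen with earlier results of these data known. Promoters are RefSeq's, GRCm38.p6. Floors are 3 counts. How reads shared by similar or overlapping genes were counted is not given in the sources used here.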

Additional observations from a re-analysis of the deposited data

Results flagged for a closer look

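High minus Low differences of each member were compared between pairs of layers in the 3 replicate labels, as log2(CPM + 1) before TMM scaling. Of 42 such pairs examined, 5 had every label of one layer moving one way and every label of the other the opposite way. These pairs were picked by their opposite signs, so the values are a description. A permutation p on the same values restates that choice and is not given, so the differences were not tested independently.

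Igfbp7 was lower in High in basal-like cells (mean -0.33, 3 of 3 labels) and higher in suprabasal-like cells (mean 0.54, 3 of 3 labels), a difference of -0.87. After TMM scaling this pattern was lost: in basal-like cells F6 went from 288 CPM in Low to 304 CPM in High, so High was lower in 2 of 3 labels, and the mean was -0.16. The suprabasal-like side also turned, to -0.014 in limma with classes from a clustering at resolution 0.3. Between proliferating-like and suprabasal-like cells its difference was -0.88.

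Igf2r was lower in High in 3 layers and higher in superficial-like cells (mean 0.20, 3 of 3 labels, smallest 0.036). The superficial-like class of High F6 was sparse, with 159 cells and 328323 UMIs of all genes. The difference from superficial-like cells was -0.74 for basal-like, -0.98 for proliferating-like and -0.67 for suprabasal-like cells. After TMM scaling Igf2r stayed lower in High for each label in basal-like and suprabasal-like cells. In basal-like cells M3 was then nearly level, at 41.6 CPM in High against 42.1 CPM in Low. Pairs with proliferating-like or superficial-like cells were not recomputed after TMM scaling.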

How the results depend on the processing

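Igfbp2 kept its higher level in High under every alternative run, at 2.76 to 3.18 in all cells, 2.63 to 3.07 in basal-like and 3.26 to 4.12 in suprabasal-like cells. Its call held in 11 of 12, 13 of 14 and 9 of 14 alternatives, and the losses are given with the results. Without the filter on low values the log2 differences were 2.99, 2.86 and 3.62. Causes of the changes below were not tested.

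The number of genes called moved more. With the replicate block it was 64 in all cells, 102 in basal-like and 274 in suprabasal-like cells, against 19, 29 and 37. With a pseudocount of 0.1 CPM it was 5, 15 and 2. Without the filter limma called 0 in each, with 1355, 1048 and 1635 genes at an unadjusted p under 0.05. With 1000 detected genes per cell it was 15 in basal-like and 20 in suprabasal-like cells. Suprabasal-like cells gave 61 with summed UMIs and 155 at resolution 1.0. For G2M minus G1 it was 1034, against 2141 with all kept cells and 2398 without thinning. Leaving out 1 library gave 6 to 17, 5 to 37, 0 to 94 and 686 to 1272 genes in the 4 comparisons. Suprabasal-like cells gave 0 without High F2 (1316 at an unadjusted p under 0.05) and 0 without High F6 (899).

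Several members that were not called changed sign, but Igf2r did not in any founder comparison. In all cells Igfbp3 was -0.014 without the filter, -0.079 with summed UMIs, -0.099 without TMM factors and -0.068 with 1000 detected genes, and Igfbp7 was 0.055 with summed UMIs. Insr was -0.11 without TMM factors in basal-like cells, and -0.090, -0.011 and -0.087 in suprabasal-like cells with summed UMIs, without TMM factors and with 1000 detected genes. Igfbp7 was -0.014 in suprabasal-like cells at resolution 0.3. For G2M minus G1, Igfbp2 was 0.39 with all kept cells and 0.031 without TMM factors, and Igfbp7 was 0.53 with all kept cells. Igf1r kept its sign without thinning but passed the test, at -0.31 (adjusted p 0.043 in limma). An alternative added after seeing the data compared these phases in proliferating-like cells alone, with 31 to 59 G1 cells per library. Its log2 differences were 0.49 for Igfbp2, 0.25 for Igfbp4, 0.36 for Igfbp7, 0.76 for Igf1r, 1.30 for Igf2r and 2.03 for Insr. The median of all genes there was 1.25. Leaving out 1 library gave, in all cells, -0.37 to 0.55 for Igfbp3, -0.86 to 0.17 for Igfbp4, -0.27 to 0.15 for Igfbp7, -0.47 to 0.022 for Igf1r and -0.092 to 0.42 for Insr. In basal-like cells it gave -0.17 to 0.79, -1.13 to 0.026, -0.33 to 0.031, -0.37 to 0.063 and -0.16 to 0.45 for the same genes. In suprabasal-like cells it gave -0.83 to 0.13 for Igfbp3, -0.38 to 0.67 for Igfbp4 and -0.10 to 0.44 for Insr, and for G2M minus G1 -0.18 to 0.13 for Igfbp2. Plain CPM moved the median of all genes to -0.10, -0.15 and -0.10 in the 3 founder comparisons. Igfbp5 and Igfbp6, with 37 and 4 UMIs, were too low to test.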
